A study of Arabidopsis thaliana with 4 samples.

Results

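The subject is 8 nuclear genes of Arabidopsis thaliana whose proteins work in the plastid, followed through a growth course of dark-grown suspension cells. The genes are LHCB4.1, PSBY, ATPC1, PORB, RCA, SECE1, CaS and AAE15. They were chosen by symbol, with earlier results of these data known, so their counts beside those of all probe sets are description only. Each probe set that the array's annotation gives to such a gene alone was taken. This gave 8 probe sets, 1 per gene, among the 22746 probe sets compared, and all 8 were measured, meaning that at least 1 array lay above the signal floor of 25.3 described below.

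The cells were MM2d, an established suspension-cultured line. All 4 groups came from 5 ml of an early stationary culture, 7 days after its own subculture, put into 100 ml of new medium. Sucrose (3%) fed the cells, in MS medium with an auxin, NAA, at 0.5 mg/l and a cytokinin, kinetin, at 0.05 mg/l. The flasks rotated at 130 rpm and 27 °C in continuous darkness. The groups differ in age alone, with 1 array each for day 1, day 3, day 5 and day 7 after subculture. A single cell line fed with sucrose in the dark is no model of a green leaf.

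Most plastid proteins are encoded in the nucleus, made in the cytosol and imported. Photosystem II, the photosystem that splits water, and the plastid ATP synthase are each built from subunits of both genomes. In seedlings many of the nuclear genes are switched on by light, and plastids that form in darkness hold protochlorophyllide, the last chlorophyll precursor before the step that needs light. The same organelle makes fatty acids in all cells, green or not.

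Signals are MAS5 intensities, a linear scale on which every array has the same trimmed mean, 100.0. Signals below the 40th percentile of all signals, 25.3, were raised to that floor, so a ratio against such a value is a bound and is written as at least N-fold. There was no replicate, so no difference between days could be tested, and every ratio is one between 2 single arrays. The only gauge of error was the disagreement between both probe sets of the 96 genes that had 2 measured ones. On the log2 ratio its SD between successive days was 0.57 (days 1 and 3), 0.36 (days 3 and 5) and 0.30 (days 5 and 7). Between days further apart it was 0.64 (days 1 and 7), 0.54 (days 1 and 5) and 0.40 (days 3 and 7). A difference within this SD is called here within the error between probe sets. It leaves out differences between cultures and labellings. The 3' to 5' signal ratio of ubiquitin, a sign of RNA integrity, was 1.59 on day 1 and 1.22 to 1.3 later, and that of actin was 1.45 against 1.05 to 1.18. That of GAPDH was 0.950 to 1.12, highest on day 7. Each array had 57.0% to 61.6% of its probe sets above the floor, day 1 the fewest. The part of RNA integrity in the ratios with day 1 was not tested. In bulk RNA, fewer cells of a kind and less RNA per cell cannot be told apart.

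The 8 genes did not move as a block. A group of 4, PSBY, ATPC1, PORB and RCA, was lower on day 3 than on day 1, higher again on day 5 and lower on day 7. CaS went the opposite way at each step. SECE1 was highest on day 1 and lower from day 3 on, AAE15 was about 4-fold higher on days 5 and 7 than before, and LHCB4.1 stayed within 1.2-fold over the whole course. The lowest signal fell on day 7 for 5 of the 8, and the highest on day 1 for 4.

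**Figure D1:**
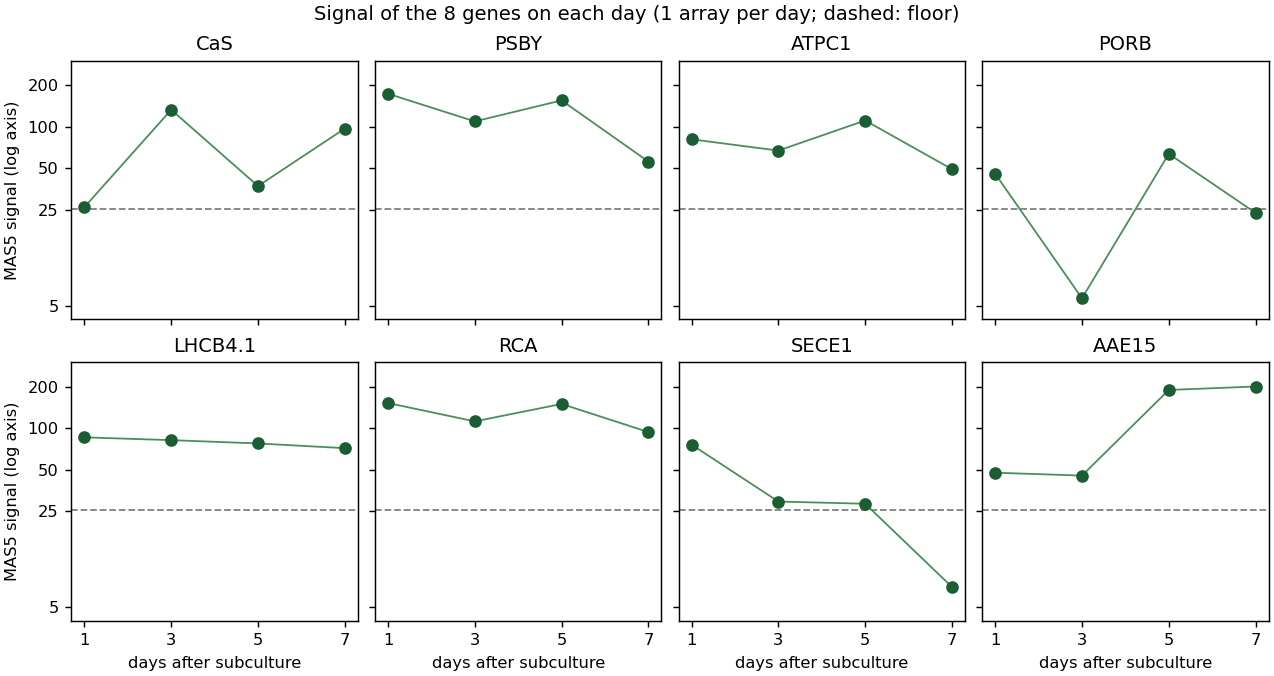
MAS5 signal (log axis) of each of the 8 genes on days 1, 3, 5 and 7 after subculture, with 1 point per array and the floor of 25.3 as a dashed line. PSBY, ATPC1, PORB and RCA dip on day 3 and day 7, CaS peaks there, AAE15 steps up to 189 on day 5, and PORB on days 3 and 7 and SECE1 on day 7 lie below the floor.

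LHCB4.1 (AT5G01530) encodes a minor chlorophyll-binding antenna protein that links the main antenna to the photosystem II core. Its signal was 85.7, 81.8, 77.4 and 71.6 on days 1, 3, 5 and 7. The order of the days is the order of time, but no pair of days differed by more than the error between probe sets. The log2 ratio of day 7 to day 1 was -0.26, and 89.8% of all measured probe sets had at least as large a range over the course. With arrays scaled to the hybridisation controls that ratio was 0.03 and the ratio of day 7 to day 5 was 0.24, so even its direction depends on the scaling.

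PSBY (AT1G67740) encodes a precursor that is cut into small thylakoid proteins of photosystem II. Its signal was 174, 109, 155 and 56.0 on days 1, 3, 5 and 7. Day 7 was thus the low point, 3.11-fold below day 1 and 2.78-fold below day 5, while days 1 and 5 differed by less than the error between probe sets. As a ratio of day 7 to day 5, its log2 value of -1.47 was among the lowest 0.628% of measured probe sets. The dip on day 3 was 1.59-fold against day 1.

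ATPC1 (AT4G04640) encodes the gamma subunit of the plastid ATP synthase, the stalk whose disulfide switches the enzyme off in darkness. The signal was 81.2, 67.2, 111 and 49.3 on days 1, 3, 5 and 7. Day 5 was the high point and day 7 the low one, a 2.26-fold difference. Day 1 lay within the error between probe sets of both day 3 and day 5. Its paralog ATPC2 (AT1G15700) stayed nearly level, with signals of 84.0, 70.5, 80.7 and 73.3 on the same days.

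PORB (AT4G27440) encodes a protochlorophyllide oxidoreductase, which makes chlorophyllide from protochlorophyllide in the light. Its signal was 45.6, 5.69, 63.6 and 23.7 on days 1, 3, 5 and 7. Days 1 and 5 lay above the floor and within the error between probe sets of each other, and days 3 and 7 lay below it and have no order. Day 5 was at least 2.52-fold higher than either, and day 1 at least 1.81-fold higher. The sizes rest on the floor: the log2 ratio of day 5 to day 3 was 3.48 without one and 0.63 with one at the 50th percentile.

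RCA (AT2G39730) encodes rubisco activase, which frees the carbon-fixing enzyme of inhibitory sugar phosphates. Its signal was 152, 112, 150 and 93.6 on days 1, 3, 5 and 7. Days 1 and 5 were nearly equal, at a log2 ratio of -0.02, and days 3 and 7 differed from each other by less than the error between probe sets. The differences were small, at most 1.62-fold, between day 7 and day 1, and 51.8% of measured probe sets had as large a range. The plastid gene rbcL, for the large subunit of rubisco, was at 84.4, 82.0, 98.3 and 62.0, with day 7 low as for RCA. Only the steps from day 3 to day 5 (log2 ratio 0.42) and from day 5 to day 7 (-0.68) exceeded the error between probe sets among the 3 steps.

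SECE1 (AT4G14870) encodes a subunit of the thylakoid Sec translocase, the channel through which some imported proteins cross or enter the thylakoid membrane. The signal was 75.8, 29.3, 28.3 and 7.03 on days 1, 3, 5 and 7. Day 1 alone was well above the floor: day 3 was 2.59-fold lower, day 5 2.68-fold and day 7 at least 3.00-fold lower. Days 3 and 5 could not be told apart by the error between probe sets. Day 7 was below the floor and at least 1.12-fold lower than day 5, a bound that does not show these days to be alike: the log2 ratio was -1.31 with a floor at the 25th percentile, -0.94 with a pseudocount and -2.01 without a floor. With a floor at the 50th percentile the log2 ratio of day 3 to day 1 was -0.88, under 2-fold.

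CaS (AT5G23060) encodes a calcium-binding protein of the thylakoid membrane, known from guard cells for its part in calcium-induced stomatal closure. The signal was 26.1, 133, 37.2 and 97.2 on days 1, 3, 5 and 7. Days 3 and 7 were high and days 1 and 5 low, with 1 array each. Days 1 and 5 differed by less than the error between probe sets. Day 3 was 5.09-fold above day 1, a ratio reached by 0.366% of measured probe sets. Day 5 was 3.58-fold below day 3, where 0.575% lay as low, and day 7 was 2.62-fold above day 5, where 1.11% lay as high. Since the day 1 signal sits just above the floor, the first of these log2 ratios, 2.35, was 1.69 with a floor at the 50th percentile.

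AAE15 (AT4G14070) encodes a plastid acyl-activating enzyme, which attaches free fatty acids to acyl carrier protein so that they can be lengthened. Its signal was 47.5, 45.2, 189 and 200.5 on days 1, 3, 5 and 7. The course was a single step between days 3 and 5, of 4.18-fold, and neither days 1 and 3 nor days 5 and 7 differed by more than the error between probe sets. At least as high a ratio of day 5 to day 3 was found in 1.22% of measured probe sets. Its paralog AAE16 (AT3G23790) also stood higher late, with signals of 47.8, 32.7, 66.0 and 84.7, and 2.02-fold higher on day 5 than on day 3.

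The first comparison was of day 3 with day 1. A log2 ratio below 0 was found in 7 of the 8 genes, with a median of -0.36 against 0.01 for all measured probe sets. CaS was the 1 gene at least 2-fold higher, where 4.02% of all 15292 measured probe sets were, and SECE1 the 1 gene at least 2-fold lower, where 1.65% were. Either way 5.66% of all probe sets differed as much, and 7.67% of the 6600 with a mean signal within the range of the 8 genes, 35.5 to 124. If all arrays were given a common median, or were quantile normalized, 2 genes were at least 2-fold lower, PORB being the second. Of all probe sets 3.08% and 2.04% were then as low. The same 2 genes were past the limit with a floor at the 25th percentile, no floor or a pseudocount. The shares of all probe sets were then 2.14%, 2.99% and 1.3%. With a floor at the 50th percentile neither gene was past the limit.

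Day 5 against day 3 was the step at which most of the 8 stood higher again. Of the 8 genes 5 were above 0 and 3 below, with a median log2 ratio of 0.46 against 0.00 for all measured probe sets. AAE15 and PORB were at least 2-fold higher (6.24% of all probe sets were) and CaS was at least 2-fold lower (3.81% were). Of all measured probe sets 10.0% differed as much either way, and 12.3% of those in the same signal range.

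The last step, of day 7 against day 5, ended at the age of the cells used as inoculum. Of the 8 genes 6 were below 0, with a median log2 ratio of -0.42 against 0.00. PSBY, PORB and ATPC1, with roles in photosystem II, chlorophyll synthesis and ATP synthesis, were at least 2-fold lower, where 2.71% of all probe sets were, and CaS was at least 2-fold higher, where 2.94% were. The share either way was 5.65% of all and 7.36% in the same signal range. Scaling to the hybridisation controls moved the median of all probe sets to 0.32 here. ATPC1, at -0.82, was then less than 2-fold lower, which left 2 genes lower and 1 higher. Of all probe sets 1.06% were then at least 2-fold lower and 8.13% higher. With no floor, or a lower one (25th percentile), SECE1 was also past the limit, which gave 4 lower and 1 higher. The shares of all probe sets at least 2-fold lower were then 4.48% and 3.4%.

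Over the whole course, day 7 against day 1, 6 genes were below 0 and the median log2 ratio was -0.71 against 0.06 for all. PSBY and SECE1 were at least 2-fold lower, the latter as a bound, where 10.5% of all probe sets were. AAE15, at 4.22-fold, and CaS, at 3.72-fold, were at least 2-fold higher, where 13.1% were. Either way 23.5% of all probe sets differed as much, and 26.3% in the same signal range. With a common median, which moved the median of all probe sets to -0.12, ATPC1 (-1.01) and PORB were also past the limit, giving 4 lower and 2 higher. Of all probe sets 16.3% were then at least 2-fold lower and 8.89% higher. After quantile normalization it was 3 and 2, with 11.5% and 10.8% of all probe sets. Over the 4 days together, 6 of the 8 genes had at least a 2-fold range, as did 31.3% of all measured probe sets. The count for the 8 was 5 with the hybridisation controls or a pseudocount, and 4 with a floor at the 50th percentile. The other scalings and treatments of low signals left it at 6.

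**Figure D2:**
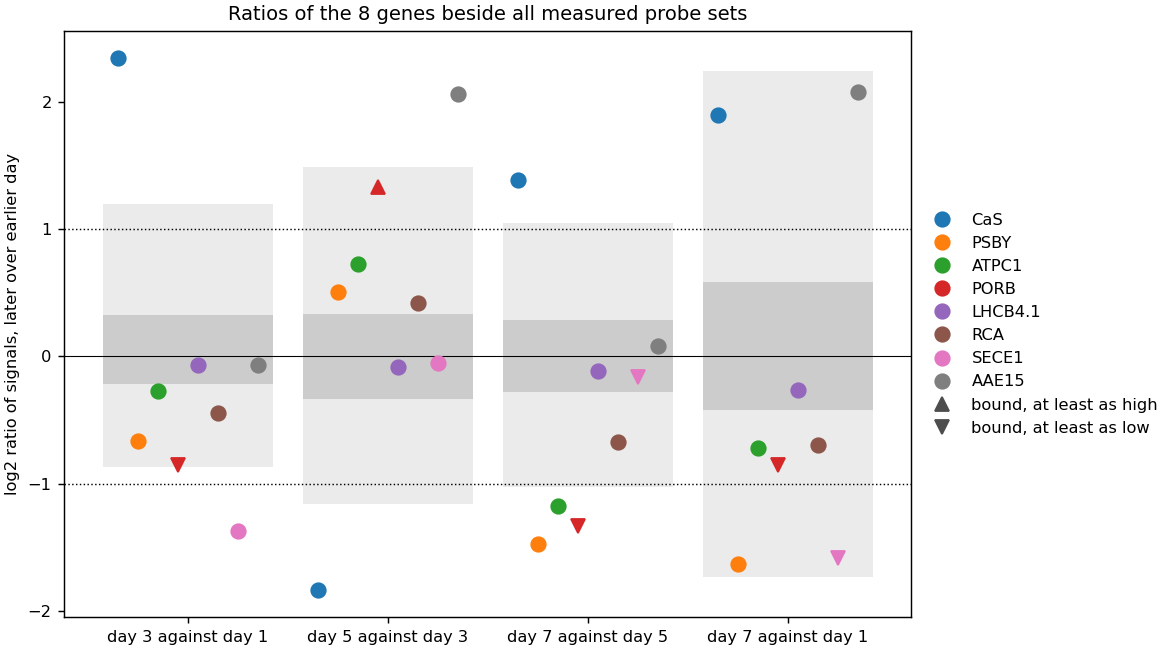
Log2 ratio of the later to the earlier day for the 8 genes (coloured points, with triangles for bounds set by the floor) in the 4 comparisons. Grey bars give all 15292 measured probe sets, dark from the lower to the upper quartile and light over the central 95%, and dotted lines mark 2-fold; CaS lies beyond the light bar in each of the first 3 comparisons, SECE1 in the first, AAE15 in the next, and PSBY, ATPC1 and PORB on day 7 against day 5.

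The alternation of PSBY, ATPC1, PORB and RCA, lower then higher then lower over the 3 steps, was noticed after their signals had been seen. It was found in 4 of the 8 genes and in 15.9% of all measured probe sets, and the reverse course of CaS in 19.7%. The 4 genes kept it under each of the 8 other scalings and treatments of low signals. The 3 steps share arrays, so that an error of the day 3 array alone would give the first 2 signs, and one of the day 5 array the last 2. The first step of ATPC1 and RCA was within the error between probe sets.

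Photosystem II and the ATP synthase allow nuclear and plastid-encoded subunits of 1 complex to be set side by side. Of the 15 plastid-encoded psb genes, all measured, 8 had the same alternation as PSBY. Their median log2 ratio was -0.26 on day 3 against day 1, where PSBY had -0.67, and 0.26 on day 5 against day 3, where PSBY had 0.51. On day 7 against day 5 it was -0.48, with PSBY at -1.47. Of the psb genes with the widest range, psbT, for a small subunit of the core, was closest to PSBY, with signals of 544, 339, 406 and 190. The gene psbA, for the reaction centre protein D1, was at 145, 123, 505 and 768, highest where PSBY was lowest. The gene psbN, for an assembly factor, alternated like PSBY but had its high point on day 5, at 113, 39.8, 215 and 135. In psbH, for a small phosphoprotein, day 3 was highest, at 256, 357, 270 and 132.

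Of the 6 plastid-encoded ATP synthase genes, atpI, atpH, atpF and atpA, which lie in 1 transcription unit, alternated as ATPC1 did. On day 7 against day 5, where ATPC1 had a log2 ratio of -1.17, atpH had -1.21 and atpF -1.10, and atpI and atpA had -0.47 and -0.41. The pair atpB and atpE, for the beta and epsilon subunits and also cotranscribed, did otherwise. The signal of atpB was 294, 616, 783 and 1482 on the 4 days and that of atpE 301, 524, 450 and 747. Each complex thus had subunit signals near the course of its nuclear gene and others far from it. Whether the array reads plastid-encoded transcripts as it reads nuclear ones was not tested. Of the 10 plastid-encoded NDH genes, for the thylakoid NADH dehydrogenase-like complex, 8 alternated in the same way. These differences between sets of genes were not tested.

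**Figure D3:**
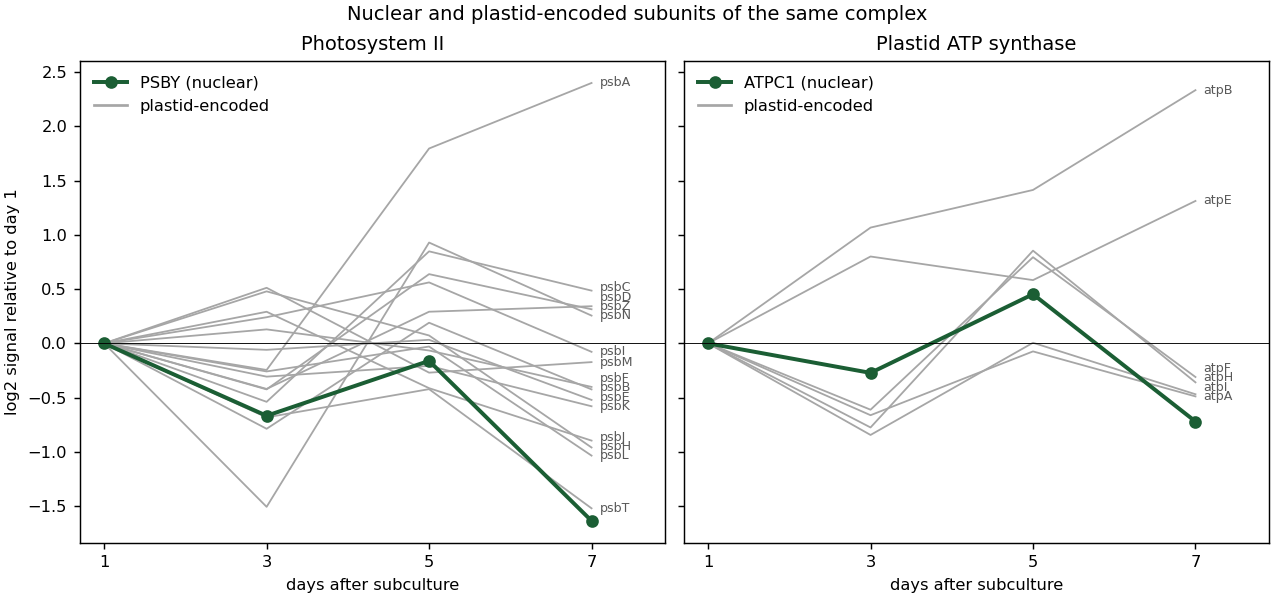
Log2 signal relative to day 1 for PSBY with the 15 plastid-encoded photosystem II genes (left) and for ATPC1 with the 6 plastid-encoded ATP synthase genes (right), 1 array per day. ATPC1 runs with atpF, atpH, atpI and atpA and apart from atpB and atpE, and psbT ends nearest to PSBY.

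Other nuclear genes of the same pathways came from 10 lists of 159 genes beside the 8. Of these 25 have a probe set named for them alone, and 20 were measured. None of the 20 was at least 2-fold different on day 3 against day 1, and 2 were on day 5 against day 3. On day 7, 2 were against day 5 and 3 against day 1. The shares of all measured probe sets were 5.66%, 10.0%, 5.65% and 23.5%, so these counts are description only. The median log2 ratios of the 20 in the 4 comparisons were 0.03, 0.17, -0.26 and -0.06. For the 8 genes they were -0.36, 0.46, -0.42 and -0.71. The alternation of PSBY was found in 7 of the 20, and in 15.9% of all measured probe sets. The list of 14 plastid regulators, among the 10, had no probe set named for any of them alone.

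In chlorophyll synthesis 8 genes beside PORB were measured, from the common tetrapyrrole steps to the last ones. Nearest to PORB in its course was AT1G74470, geranylgeranyl reductase, which makes the chlorophyll side chain. Its signal was 230, 120, 260 and 104 on days 1, 3, 5 and 7, with log2 ratios of -0.94, 1.12 and -1.33 between successive days. Like PORB, whose signals on days 3 and 7 lay below the floor, it was higher on days 1 and 5 than on days 3 and 7. HEMA2, a glutamyl-tRNA reductase isoform at the start of the pathway, was at 31.4, 57.6, 57.4 and 118, lowest on day 1, level between days 3 and 5 and highest on day 7. CHLM, a methyltransferase of the magnesium branch, was at 82.7, 113, 57.7 and 41.9, its high point on day 3.

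The other measured genes of that pathway stayed within 2-fold once low signals were raised to the floor. GSA1, of 5-aminolevulinate synthesis, was between 116 and 128 on days 1, 3 and 7 and higher on day 5, with a log2 ratio of 0.79 to day 3. HEMB1, which joins the first ring, had a range of 190 to 292 and HEME1, a uroporphyrinogen decarboxylase, one of 37.9 to 55.0. Its paralog HEME2 was below the floor on days 1 and 3 and at 38.2 on day 5. CHLI2, of the magnesium chelatase, was above the floor on day 1 alone, at 27.7.

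In light harvesting and the photosystems, PSBW, a small nuclear subunit of photosystem II, shared PSBY's alternation with signals of 85.5, 53.9, 88.2 and 54.5. LHCB4.3, a paralog of LHCB4.1, lay near the floor throughout, at 25.3 to 35.4. LHCB4.2, the other paralog, had a signal of at most 1.14, and the photosystem I genes PSAE-1 and PSAN, at most 20.9 and 4.72, were below the floor on every day. In carbon fixation, SBPASE, of the regenerating part of the Calvin-Benson cycle, was at 46.9, 72.8, 80.5 and 50.7, its high days being 3 and 5. AT1G56190 stayed between 194 and 261, and neither followed the course of RCA. PRK, phosphoribulokinase, stayed below the floor, at most 23.9.

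In electron transport, PGRL1B, of cyclic electron flow, alternated weakly, at 65.4, 50.1, 69.4 and 59.1, and AT2G26500 had its high point of 357 on day 5. In thylakoid transport, AT5G28750 was at 108, 62.8, 66.8 and 43.5 on days 1, 3, 5 and 7. As for SECE1, day 1 was highest and day 7 lowest, with a log2 ratio of -1.31 between them. SECA2 was below the floor on every day. Among thylakoid structure genes AT4G01150 (CURT1A), which bends thylakoid membranes, was at 825, 697, 1073 and 744. Its course was opposite to that of CaS, which stood in the same list. In plastid fatty acid synthesis FATB, a thioesterase that releases saturated fatty acids, was highest on day 7, at 274 against 143 on day 1, and FaTA, the thioesterase for oleate, was at 86.8, 89.9, 73.5 and 60.4.

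**Figure D4:**
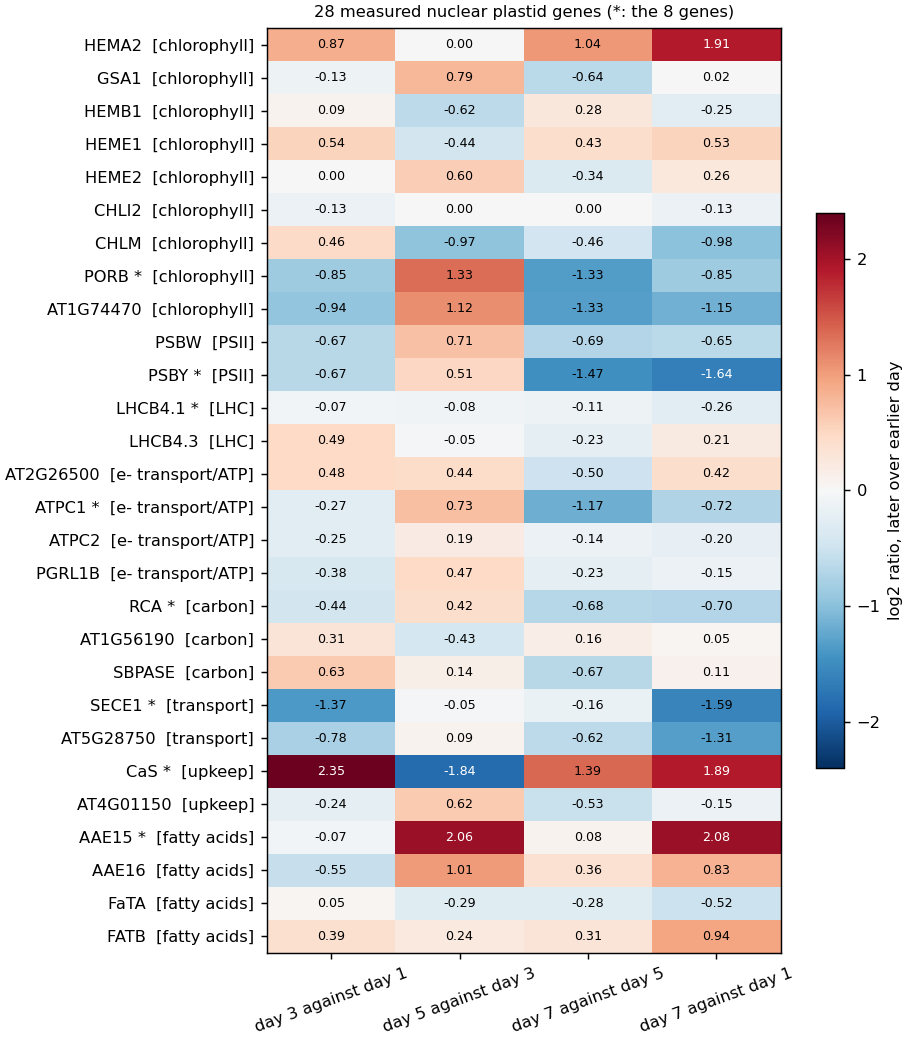
Log2 ratios of the later to the earlier day in the 4 comparisons for the 28 measured nuclear genes of plastid pathways, with the 8 genes marked by a star and the pathway in brackets; blue is lower and red higher on the later day. PORB and AT1G74470 share the sequence lower, higher, lower, and CaS shows the reverse.

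For each of the 6 genes with at least a 2-fold range, the 3 named genes with the closest course were found among 367 eligible probe sets. Closeness was the root mean square difference of log2 signals over the 4 days, each centred on its own mean. Signals below the floor were first raised to it, so that differences below the floor are left out. A value of 0 is an identical course after this. Closest to ATPC1 was rps15, a plastid-encoded ribosomal protein gene (0.06), then IQD23, of a calmodulin-binding family (0.16), and psbL (0.21). Closest to PSBY was psbT (0.14), then PRP39 and LSM3A, both of RNA processing (0.17 and 0.22). PORB lay closest to TBL37, of a family that acetylates wall polysaccharides (0.08), IQD23 (0.09) and atpF (0.19). These PORB distances rest on the floor. Its day 3 signal of 5.69 was raised to 25.3, while TBL37 was at 23.2 and IQD23 at 124 on that day.

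SECE1 lay closest to AGL62, a MADS-box factor (0.10), YUC6, of auxin synthesis (0.15), and LIL3:1 (0.16), a light-harvesting-like protein that holds geranylgeranyl reductase on the membrane. LIL3:1 had signals of 124, 60.6, 61.6 and 45.1, its high day being day 1 as for SECE1. The SECE1 distances rest in part on the floor, to which its day 7 signal of 7.03 was raised. So were AGL62 on days 3 and 7 (19.4 and 17.6) and YUC6 on days 3, 5 and 7 (22.4, 5.57 and 3.51). AAE15 lay closest to cox1 (0.09), AR781 (0.12) and cox2 (0.13), of which cox1 and cox2 are mitochondrion-encoded subunits of cytochrome oxidase. None of the eligible genes ran as close to CaS. Nearest were AILP1 and Prx37, a class III peroxidase, at 0.33 and 0.34. SIZ1, a SUMO ligase, followed at 0.35, and another probe set of SIZ1 gave 0.53. The measure rests on 4 arrays that all these genes share. Whether these read plastid- and mitochondrion-encoded transcripts as they read nuclear ones was not tested.

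As for the labelled material, a cell suspension has no defining marker. The 6 markers of dividing cells that were looked for, such as CYCB1;1 and KNOLLE, have no probe set named for them alone in the annotation used here. Markers of green cells could be looked for only in part. Besides the genes under study, 1 of 10 listed photosystem II genes has a probe set named for it alone. The counts were 2 of 19 for light harvesting, 2 of 12 for photosystem I and 3 of 23 for carbon fixation. Lying above the floor means a signal above the 40th percentile of all signals, not a detection call. LHCB4.1, PSBY and RCA lay above the floor on all 4 days. So did PSBW, AT1G56190, SBPASE and LHCB4.3, the last of these close to the floor. LHCB4.2, PSAE-1, PSAN and PRK did not on any day.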

How the data were processed

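For each day an Affymetrix ATH1 array was hybridised with biotin-labelled material made from total RNA. The deposited values are signal intensities, and the submitters' processing notes name MAS5 (version not given in the sources used here). The authors' scaling was kept, since the trimmed mean (2% off each end) was 100.0 on every array. From the 22810 probe sets 64 controls were left out, and 15292 of the other 22746 were measured. Depth in the sense of reads does not apply, and 1 array per group limits the precision.

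Log2 ratios were taken after raising signals to the floor, and 2-fold was the limit for counting a difference. A gene's value was the mean over its measured probe sets. Genes were named from the platform annotation (13513 probe sets with 1 gene) and RefSeq's table for TAIR10.1, which matched 13436 of them; no coordinates are printed because the array annotation's build is not given. Named genes are the 8, all measured genes of pathway lists with at most 8, the plastid-encoded atp genes, the 4 psb genes with the widest range and the 3 closest courses per gene. Outside this rule, and chosen after their values were seen, are rbcL, the listed genes below the floor on every day, and the 9 measured genes found by RefSeq name. The 8 genes and the lists were chosen with earlier results of these data known. Promoter and protein sequences were not used here.

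Alternatives were 4 other scalings, floors at the 25th and 50th percentile, no floor, a pseudocount of 16, limits of 1.5-fold and 3-fold, and leaving out suffixed probe sets. The counting step was tested on simulated data with less noise than the error between probe sets. That checks the code and not the rate of false calls. Python 3.11.15, NumPy 2.4.6, pandas 2.3.3 and matplotlib 3.10.9 were used.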

Additional observations from a re-analysis of the deposited data

How the results depend on the processing

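Of the 32 ratios of the 8 genes (8 genes in 4 comparisons), 28 kept their sign under all 8 other scalings and treatments of low signals. The exceptions were LHCB4.1 on day 7 against days 5 and 1 (0.24 and 0.03 with the hybridisation controls), and SECE1 on day 5 against day 3 and day 7 against day 5, which became 0 with the floor at the 50th percentile. Of 256 such values 25 moved by more than the error between probe sets, 17 of them of PORB or SECE1, which have signals below the floor. SECE1 on day 7 against day 1 ranged from -3.43 without a floor to -0.88 with the 50th percentile, and PORB on day 5 against day 3 from 3.48 to 0.63. No called ratio changed its sign. The number of the 8 genes at least 2-fold different on day 3 against day 1 was 2. It was 1 when the 50th percentile served as floor, 4 with a 1.5-fold limit and 1 with a 3-fold limit. With a common median, quantile normalization, a 25th percentile floor, no floor or a pseudocount it was 3. On day 7 against day 5 it was 4, but 0 with a 3-fold limit. It became 5 with a 25th percentile floor, no floor or a 1.5-fold limit. With the hybridisation controls, a 50th percentile floor or a pseudocount it was 3. On day 7 against day 1 it was 4, but 7 with a 1.5-fold limit. It became 6 with a common median, 5 after quantile normalization and 3 with a 50th percentile floor. The other pathway genes measured numbered 20, but 21 with quantile normalization, 22 with the hybridisation controls, 23 with a 25th percentile floor and 17 with a 50th, so those counts are not over the same genes. Of them 0 differed on day 3 against day 1, but 1 did with a common median, a common 75th percentile or the hybridisation controls, and 5 with a 1.5-fold limit. On day 5 against day 3 it was 2, which became 1 under a pseudocount or a 50th percentile floor, 8 with 1.5-fold and 0 with 3-fold. On day 7 against day 5 it was 2, but 1 with the hybridisation controls or a pseudocount, 6 with 1.5-fold and 0 with 3-fold. On day 7 against day 1 it was 3, against 5 with a 25th percentile floor, 7 with 1.5-fold and 1 with 3-fold. Fold limits change these counts by construction, and the cause of the other changes was not tested. The share of all measured probe sets with the alternation of PSBY was 9.05% with the hybridisation controls and 15.9% to 19.0% otherwise. No paired analysis was possible because each day has 1 array, and leaving out an array removes its day.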

Other observations

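After the signals of the 8 genes had been seen, 11 further nuclear genes were collected whose RefSeq symbols or synonyms hold a plastid, chloroplast, thylakoid, photosystem or chlorophyll word; 9 were measured. Their median log2 ratios were -0.21, -0.01 and -0.04 between successive days, and -0.01 from day 1 to day 7. Of the 9, 3 alternated as PSBY did. HCF101, which builds iron-sulfur clusters for photosystem I, was at 228, 125, 341 and 333 on days 1, 3, 5 and 7, and so was 2.73-fold higher on day 5 than on day 3. TROL, a thylakoid rhodanese-like protein that tethers a ferredoxin reductase, was at 173, 105, 217 and 172. AT1G52220 (CURT1C), a thylakoid curvature protein, was at 51.8, 30.2, 42.9 and 28.5.

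TAPX, the thylakoid ascorbate peroxidase, ran in the direction of CaS, at 26.4, 48.0, 24.2 and 32.8, with day 5 below the floor. The plastid malate dehydrogenase MDH, which is used in dark metabolism, was at 758, 574, 527 and 412, lowest on day 7. CPNIFS, a cysteine desulfurase for plastid iron-sulfur clusters, stayed between 86.7 and 96.0 over the course. The ATP/ADP carrier TAAC was at 98.2, 93.1, 70.2 and 70.9, with days 1 and 3 above days 5 and 7. GPDHp, a plastid glycerol-3-phosphate dehydrogenase, was at 122, 188, 135 and 140, highest on day 3. AT4G38100 (CURT1D), of the same family as CURT1C, was at 225, 194, 192 and 149, lowest on day 7. No cause was tested for any of these.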
